A study of Mus musculus with 6 samples.

Results

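The binding of thyroid hormone receptor β1 (TRβ1) in mouse liver without injected hormone is described here from 51297 peaks. These are all peaks on chromosomes 1 to 19 in the deposited list of the library named TRb PTU, out of 51992 peaks in that list and 98191 peaks in the 3 lists of the series. They were taken by chromosome alone, with no filter on any measured value. The control is the library named GFP PTU, which had 103 peaks on the same chromosomes out of 107. All animals were heterozygous for the biotin ligase BirA, 9 to 10 weeks old, and ate for 3 weeks a diet containing propylthiouracil (PTU), which blocks the making of thyroid hormone. For TRb PTU the liver was infected through the tail vein with an adenovirus encoding GFP and biotinylated TRβ1, and for GFP PTU with an adenovirus encoding GFP alone. Both groups then received saline for 4 days, and chromatin was captured on streptavidin agarose and sequenced (ChIP-seq). A further library, TRb T3, had the TRβ1 virus and triiodothyronine (T3) in place of saline, and is used here only as a second readout at the same sites. The tagged receptor came from a virus, so its level need not match that of the liver's own receptor. There was 1 library a side, and the sources used here do not give the number of animals behind each library.

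TRβ1 is a nuclear receptor and the main mediator of thyroid hormone action in hepatocytes. It occupies DNA with or without its ligand, usually as a heterodimer with a retinoid X receptor, at repeats of a short hexamer motif. Without hormone it is known for recruiting the corepressors NCoR and SMRT with their histone deacetylase, and T3 exchanges these for coactivators. In liver its target genes act in lipid synthesis, cholesterol metabolism and hormone deiodination. The capture used here detects occupancy of the tagged protein, not the cofactors or the transcription at a site.

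The files hold peaks and no reads, so the depth of the libraries is unknown, and a difference in peak number cannot be told apart from a difference in depth or in calling settings. Positions are 1-based on mm9 and are given without gene names or sequence, because no genome or annotation of that build was used here. The labelled tissue could not be checked against liver marker genes for the same reason. Intervals are at 95%. Those of shares are exact (Clopper-Pearson) binomial intervals over peaks, distances or windows, and those of medians are order-statistic intervals. Densities have exact Poisson intervals, and the ratio of 2 densities has one from the exact binomial share of their peaks. All of them take peaks as independent and cover counting error only, not the variation between animals. No test between the libraries was possible with 1 library a side.

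Capture of TRβ1 without injected hormone gave a broad set of narrow sites. The 51297 TRb PTU peaks covered 12.9 Mb, which is 0.537% of the 2404 Mb between the first and last peak of each chromosome. The 103 GFP PTU peaks covered 11444 bp. TRb PTU thus had 498 times as many peaks and 1127 times the covered length. Each peak has a score from the authors' peak caller, which is used here only to rank peaks within a list. In TRb PTU it ran from 2 to 615.60 with a median of 19.4 (interval 19.1 to 19.6).

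Most TRb PTU peaks were short. The median width was 210 bp (interval 209 to 211 bp), the middle 50% of peaks lay between 165 and 293 bp, and the extremes were 134 and 4436 bp. Peaks under 200 bp made up 45.0% of the list (interval 44.6 to 45.5%) and 29.1% of the covered length. Peaks of 200 to under 300 bp made up 31.2%, those of 300 to under 400 bp 12.8% and those of 400 to under 600 bp 8.43%. Only 1320 peaks, 2.57% (interval 2.44 to 2.71%), were 600 bp or wider, but they held 7.54% of the covered length. The lower end was a floor, since 2138 peaks had exactly the minimum of 134 bp.

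GFP PTU peaks were narrower still. Their median width was 68 bp (interval 60 to 77 bp), and the TRb PTU median was 3.09 times as large. Of the 103 GFP PTU peaks, 100 were under 200 bp and 18 had the list's minimum of 51 bp. None measured from 200 to under 400 bp, 1 measured 421 bp, and 2 measured 600 bp or more. The 2 lists had different minimum widths, so the settings used for calling may not have been the same, and the difference in width cannot be told apart from such a difference.

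**Figure D1:**
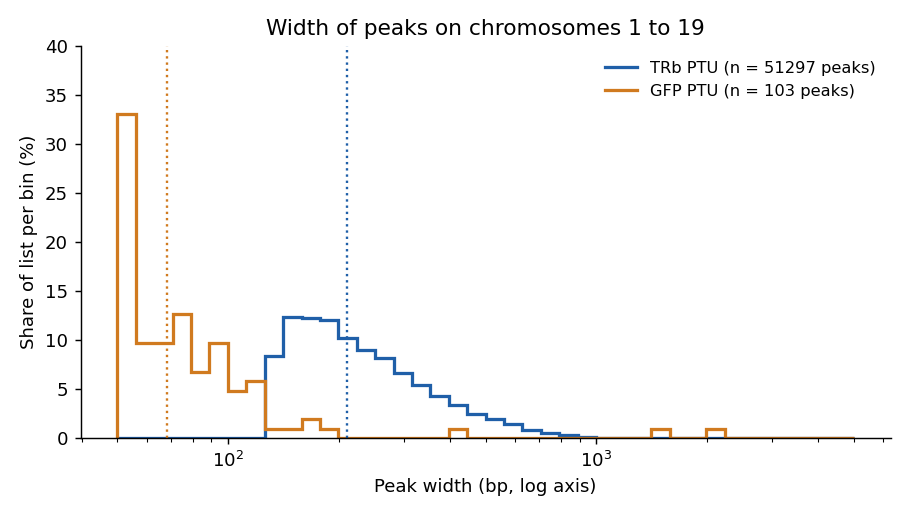
Share of each list (%, vertical axis) by peak width in bp on a log axis, for 51297 TRb PTU and 103 GFP PTU peaks on chromosomes 1 to 19. Dotted lines mark the medians of 210 and 68 bp; the TRb PTU distribution starts at its minimum of 134 bp, where few GFP PTU peaks remain.

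Wider TRb PTU peaks had higher scores. The median score was 12.0 in peaks under 200 bp (interval 11.9 to 12.0), 27.4 at 200 to under 300 bp, 41.7 at 300 to under 400 bp, 52.0 at 400 to under 600 bp and 74.0 at 600 bp or more (interval 69.8 to 79.7). The intervals of neighbouring width classes did not overlap. When all peaks were divided by score into 5 classes of near-equal size, the class with the highest scores, from 51.42 upward, held 1.71% of the peaks under 200 bp and 64.8% of those of 600 bp or more. Across the 51297 peaks the Spearman coefficient of width and score was 0.63. Width and score come from the same reads of 1 library and are not independent measures.

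The 100 highest-scored TRb PTU peaks, with scores of at least 308.9, had a median width of 414 bp and a range of 256 to 1219 bp. They came from all 19 chromosomes. None was under 200 bp, and 19 were 600 bp or wider. The peak with the highest score of the list lay at chr7:52130201-52130576 (376 bp, score 615.60) in a cluster of 8 peaks. Nearly the same score, 606.02, was reached at chr5:140679940-140680355, a peak of 416 bp. The highest score among peaks of 600 bp or more was 478.46 at chr5:122448753-122449387, and that among peaks of 200 to under 300 bp was 351.77 at chr9:50468597-50468876. Among peaks under 200 bp the highest score was 131.66, at chr5:125883936-125884127 in a cluster of 12 peaks.

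The widest peaks were of different kinds. The widest of all, chr1:24618393-24622828 at 4436 bp, had a score of 2.82, with only 0.335% of the list scored lower, and stood 62.3 kb from its nearest neighbour. It contained 2 GFP PTU peaks. The second, chr14:18758888-18762399 at 3512 bp with a score of 35.11, met all 3 GFP PTU peaks of a cluster described below. The next 3 met no GFP PTU peak and had high scores. These were chr19:23208906-23210610 (1705 bp, score 125.36), chr8:129259518-129261211 (1694 bp, 253.56) and chr12:88141833-88143492 (1660 bp, 286.29). The 2 peaks over 2 times as wide as the third were thus at sites also called in the control, and the other 3 were not.

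TRb PTU peaks lay close to one another. Measured from the end of a peak to the start of the next on the same chromosome, the median distance was 7.43 kb (interval 7.27 to 7.60 kb, 51278 distances), while the mean was 46.6 kb, 6.28 times the median. The next peak followed within less than 1 kb in 19.9% of cases (interval 19.6 to 20.3%) and at 1 to 5 kb in 23.1%. Distances of 5 to 50 kb made up 41.6%, those of 50 to 100 kb 7.22% and those of 100 kb or more 8.21%. The shortest distance was 51 bp, and 1193 distances measured at most 100 bp, so some of the short distances separate peaks that nearly touch. Joining peaks up to 500 bp apart left 44620 peaks and a median distance of 10.4 kb, and the share under 1 kb fell to 7.93%. With only the peaks at or above the median score, the median distance was 16.1 kb and the share under 1 kb 11.2%.

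GFP PTU peaks were mostly far apart. Their median distance was 9.33 Mb and 78.6% of the 84 distances were 100 kb or more (interval 68.3 to 86.8%). Short distances were present even so, with 12 of 84 under 1 kb (14.3%, interval 7.61 to 23.6%). A list of so few peaks spread over 19 chromosomes has long distances by its size, so the 2 medians say little about how sites are arranged.

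**Figure D2:**
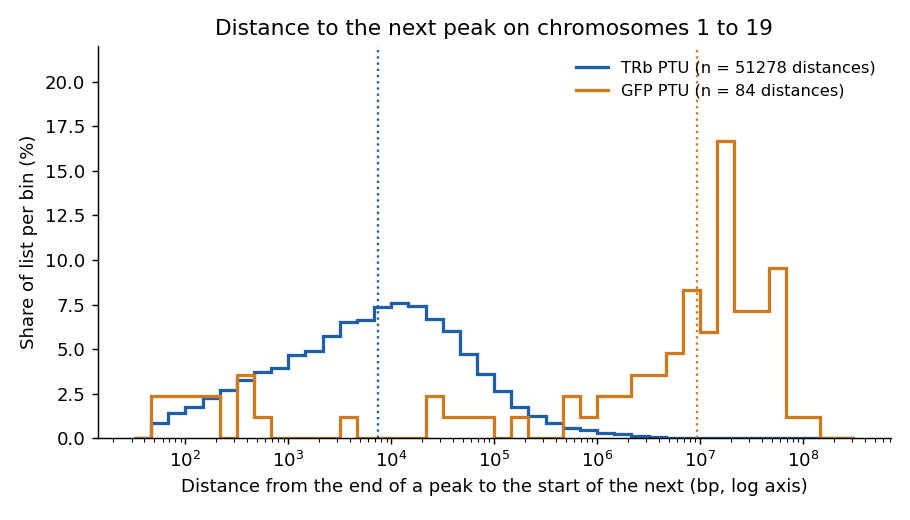
Share of distances (%, vertical axis) by the distance from the end of a peak to the start of the next in bp on a log axis, for 51278 TRb PTU and 84 GFP PTU distances. Dotted lines mark the medians; TRb PTU distances form a single broad hump with a tail towards short values, and most GFP PTU distances are 100 kb or more, with a small separate group under 1 kb.

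Peaks were joined into clusters wherever consecutive peaks stood no more than about 13 kb apart, a joining distance in common use for enhancer clusters. This gave 20451 units, of which 10223 were lone peaks, 4261 were pairs and 5967 had 3 or more peaks. Clusters of 3 or more held 32552 of the 51297 TRb PTU peaks, 63.5% (interval 63.0 to 63.9%), on 4.21% of the length between first and last peaks. Lone peaks made up 19.9%, pairs 16.6%, clusters of 3 to 4 peaks 21.5%, clusters of 5 to 9 peaks 25.1% and clusters of 10 or more 16.8%. There were 618 clusters of 10 or more peaks, with a median length of 41.1 kb, of which a median of 8.24% was covered by peaks. The share in clusters of 3 or more depended on the joining distance and was 40.8% at 5 kb and 78.9% at 25 kb. In GFP PTU 84 of 103 peaks were alone and 11 (10.7%, interval 5.45 to 18.3%) stood in 2 clusters of 3 or more.

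Peaks in clusters were slightly wider and higher in score than lone ones. The median width went from 195 bp for lone peaks (interval 193 to 197 bp) to 206, 211, 217 and 228 bp in pairs, clusters of 3 to 4, 5 to 9 and 10 or more (last interval 224 to 231 bp). The median score went from 16.9 (interval 16.6 to 17.4) to 21.8 (interval 21.1 to 22.7) over the same classes. Among peaks under 200 bp the score did not follow cluster size, with medians of 12.0 in lone peaks and 11.7 in clusters of 10 or more. Among peaks of 400 to under 600 bp it did, with 43.2 in lone peaks (interval 40.5 to 48.1) and 66.6 in clusters of 10 or more (interval 61.7 to 71.0). Of the peaks in clusters of 10 or more, 24.7% were in the highest of the 5 score classes, against 15.1% of lone peaks. As many as 592 of the 618 clusters of 10 or more had at least 1 such peak, a share that grows with the number of peaks in a cluster by construction.

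The cluster with the most peaks lay at chr19:3929671-4080771, with 43 peaks over 151 kb, a median distance of 1414 bp between neighbours and scores from 3.27 to 246.97. A cluster of 40 peaks at chr10:79556894-79630450 was more compact, at 73.6 kb with a median distance of 665 bp, and had the greatest covered length of any cluster, 13065 bp or 17.8% of its extent. Next came 39 peaks at chr14:26270629-26372976, with a median score of 36.19, the highest of these 5 clusters. A further 39 peaks lay at chr10:80520250-80655117, with a median score of 19.61, the lowest of the 5. The last of the 5, at chr8:73154278-73247983, had 36 peaks with scores up to 281.83. Each of the 5 thus mixed peaks near the bottom of the score range with peaks well above the list median of 19.4. Such a mix grows more likely with the number of peaks, for which these clusters were picked. Only the cluster on chromosome 14 contained a GFP PTU site, 1 of its 39 peaks. Over all TRb PTU peaks 0.160% were at such a site, so this count does not set the clusters apart.

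**Figure D3:**
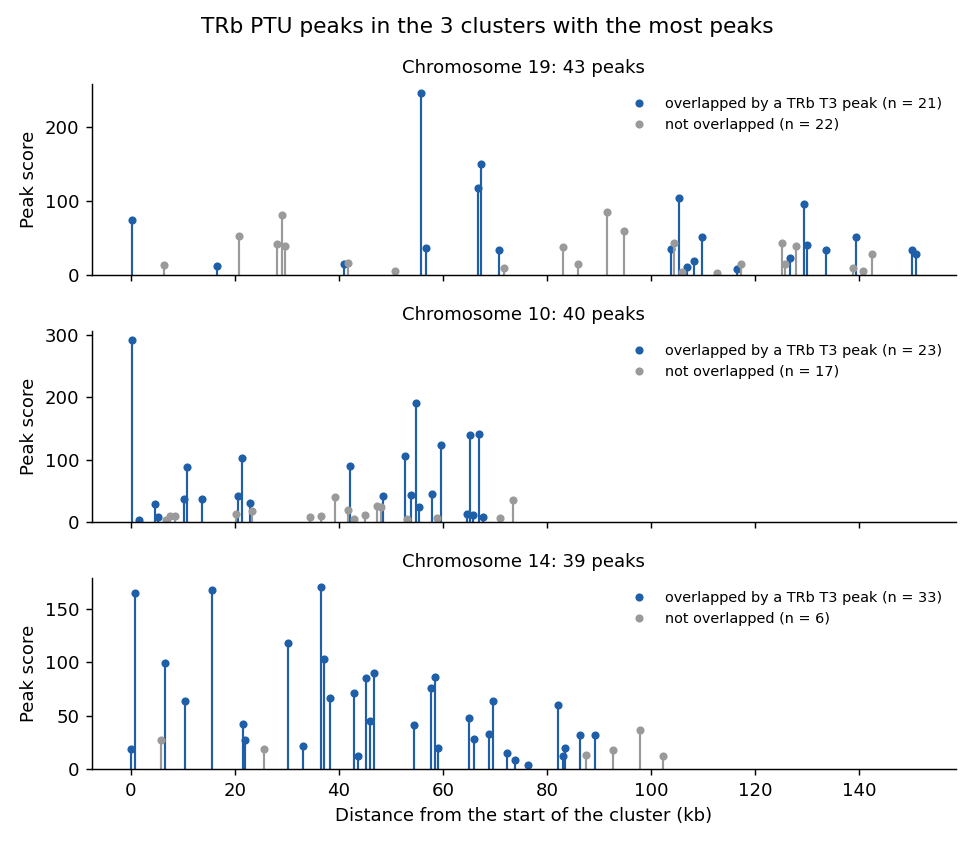
Peaks of the 3 fullest clusters, on chromosomes 19, 10 and 14, as points at their distance from the cluster start in kb (horizontal axis) with the authors' score as height (vertical axis, own scale in each panel). Blue points are peaks overlapped by a TRb T3 peak (21 of 43, 23 of 40 and 33 of 39) and grey points the others; high and low scores are mixed along each cluster.

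Some strong sites stood alone. Leaving out the first and last peak of each chromosome, which have a neighbour on 1 side only, no other TRb PTU peak lay within 100 kb on either side of 1160 peaks, 2.26% of the list (interval 2.13 to 2.39%). Their median width was 187 bp (interval 182 to 192 bp) and their median score 15.5 (interval 14.7 to 16.6), both below the values of the whole list. The highest-scored of them was chr14:78783091-78783641 (551 bp, score 290.16), which was 153 kb from the nearest peak and scored above 99.7% of the list. It was followed by chr18:55815420-55815781 (score 270.11), chr7:70480951-70481367 (242.05), chr13:91363310-91363829 (241.98) and chr6:92964602-92964868 (228.31). The peak on chromosome 7 was the most remote of the 5, 515 kb from its neighbour on one side and 1677671 bp on the other. All 5 were also in the TRb T3 list and none was at a GFP PTU site. Of all 1160 such peaks, 49.7% were overlapped by TRb T3 (interval 46.8 to 52.7%) and 4 were at GFP PTU sites. Over the whole list these shares were 53.9% and 0.160%. The 5 were picked for their scores, and all of the 100 highest-scored peaks of the list were overlapped by TRb T3. Of the 100 highest-scored peaks of the list, 16 were in no cluster, 69 were in clusters of 3 or more and 22 in clusters of 10 or more. Over all peaks these shares were 19.9, 63.5 and 16.8%.

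Peaks were spread unevenly along the chromosomes. In 2418 windows of 1 Mb the mean was 21.2 peaks and the median 13, and 394 windows, 16.3% (interval 14.8 to 17.8%), held 50% of all peaks. No peak fell in 323 windows (13.4%, interval 12.0 to 14.8%), and 449 had 1 to 4. At the other end, 301 windows had 50 peaks or more and together held 41.8% of the list. The fullest windows adjoined each other on chromosome 10, with 201 peaks at chr10:80000001-81000000 and 170 at chr10:79000001-80000000. They were followed by 147 peaks at chr2:167000001-168000000 and by 144 each at chr11:120000001-121000000 and chr17:56000001-57000000.

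Long stretches had no TRb PTU peak. Distances of 1 Mb or more occurred 360 times and added up to 688 Mb, 28.6% of the length between first and last peaks. The longest was 8.40 Mb, at chr14:106855447-115255911, followed by 7.09 Mb at chr7:39329458-46415065 and 6.11 Mb at chr2:94689511-100799682. Stretches of 5.69 Mb at chr5:54747751-60434073 and 5.39 Mb at chr6:101324953-106719074 came next. The TRb T3 list had few peaks in these 5 stretches, with 5, 1, 3, 9 and 3 respectively, against 18.9 peaks per Mb between its first and last peaks. The GFP PTU list had 0 in each. With only 0.069 peaks per Mb in that list, these counts of 0 say little. How much of a stretch could be mapped is not known from peak lists.

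Chromosomes differed in density by more than Poisson counting error. That error takes peaks as independent, but the variance of peak number in 1 Mb windows was 27.1 times the mean. The intervals of densities given here are therefore too narrow. Chromosome 11 had the most TRb PTU peaks per Mb, 34.6 (interval 33.5 to 35.6), with 4101 peaks and 8.87 kb covered per Mb. Chromosome 19 was close at 33.2 (interval 31.8 to 34.7), so these 2 did not differ beyond counting error. Chromosome 3 had the fewest at 15.4 (interval 14.8 to 16.0), and 14 and 1 had 15.8 and 15.9, with overlapping intervals. The density on chromosome 11 was 2.24 times that on chromosome 3 (interval 2.13 to 2.36). These were picked as the highest and lowest of the 19 chromosomes, which the interval does not take into account. Chromosome 17 was the only other one above 25, at 25.9 (interval 24.9 to 27.0). The remaining 13 chromosomes lay between 17.3 and 23.9.

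The sites on dense chromosomes were closer together, and width and score differed little between chromosomes. The share of peaks in clusters of 3 or more was lowest on chromosome 18, at 54.2% (interval 51.6 to 56.7%), and highest on chromosome 11, at 71.6% (interval 70.2 to 72.9%). The median distance to the next peak was 5.57 kb on chromosome 11 (interval 5.12 to 6.11 kb) and 10.6 kb on chromosome 13 (interval 9.59 to 12.1 kb). Over the 19 chromosomes the clustered share had a Spearman coefficient of 0.92 with peaks per Mb, a description of quantities that share the same peaks. At a fixed joining distance, more peaks per Mb tend to shorten distances and raise the clustered share by construction. The share of peaks of 300 bp or more had a coefficient of 0.78, the median width 0.60 and the median score 0.27. That share ran from 21.9% on chromosome 3 to 25.2% on chromosome 15. Median width ran only from 205 bp on chromosomes 2 and 13 to 217 bp on chromosome 7, and median score from 18.2 on chromosome 16 to 20.3 on chromosome 7. Chromosome 19 was nearly as dense as chromosome 11. It had 68.2% of its peaks in clusters of 3 or more (interval 66.1 to 70.3%) and a median distance of 6.32 kb (interval 5.66 to 6.98 kb). Both intervals overlapped those of chromosome 11. GFP PTU peaks numbered 1 on chromosomes 7 and 19, 10 on chromosome 11 and 11 on chromosome 2. Their numbers, not divided by chromosome length, had a coefficient of 0.0018 with TRb PTU peaks per Mb over the 19 chromosomes. The undivided number of TRb PTU peaks itself had only 0.458. The value for GFP PTU therefore says little about whether control sites follow TRb PTU density.

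**Figure D4:**
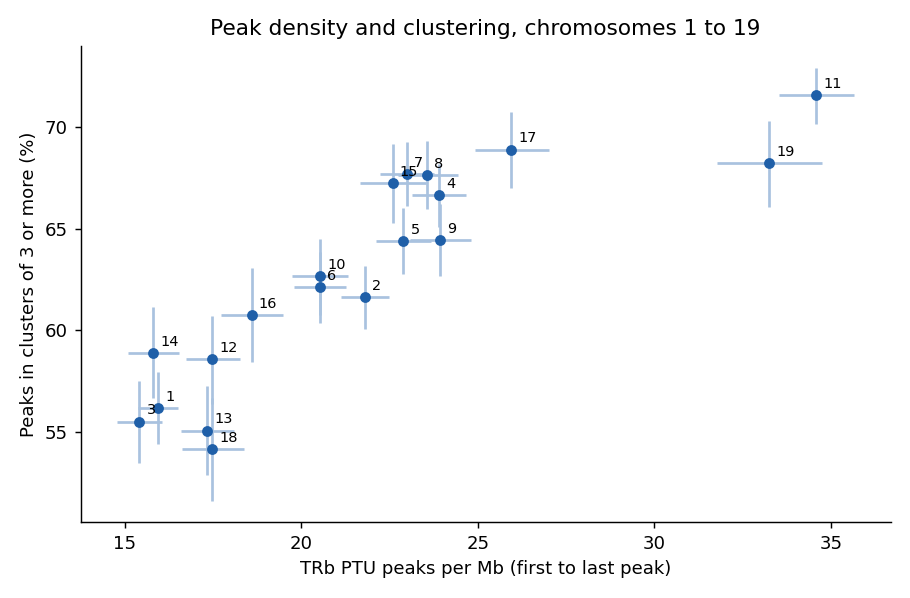
TRb PTU peaks per Mb between the first and last peak (horizontal axis) and the share of peaks in clusters of 3 or more (%, vertical axis, not starting at 0), with 1 numbered point for each of the 19 chromosomes and 95% counting intervals as bars. The points run from chromosome 3 at 15.4 peaks per Mb to chromosome 11 at 34.6, with clustered shares from 54.2 to 71.6%.

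Sites called in GFP control livers were a small part of the list, as they had to be with 103 control peaks. A GFP PTU peak overlapped 82 of the 51297 TRb PTU peaks by at least 1 bp, 0.160% (interval 0.127 to 0.198%). In the other direction 90 of the 103 GFP PTU peaks met a TRb PTU peak, 87.4% (interval 79.4 to 93.1%). Of those 90, 81 lay wholly inside the TRb PTU peak, with a median distance of 46 bp between midpoints and a median width of 23.5% of it. A stricter overlap of at least 50% of the TRb PTU peak therefore left 11.7% of GFP PTU peaks.

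The TRb PTU peaks at control sites were wider than the rest of their list. Their median width was 309 bp (interval 265 to 356 bp) against 210 bp (interval 209 to 211 bp), and 11.0% were 600 bp or more (interval 5.14 to 19.8%) against 2.56%. A wider peak is also a larger target for an overlap, and the part this has in the difference was not tested. Their median score was 30.1 (interval 20.8 to 40.6) against 19.4. Lone peaks were more common among them, 32.9% (interval 22.9 to 44.2%) against 19.9%. The share of TRb PTU peaks at a GFP PTU site went from 0.264% among lone peaks (interval 0.174 to 0.384%) to 0.104% in clusters of 10 or more (interval 0.0477 to 0.198%). These 2 shares rest on 27 and 9 such peaks, and their intervals overlapped. By width it went from 0.0736% under 200 bp (interval 0.0429 to 0.118%) to 0.682% at 600 bp or more (interval 0.312 to 1.29%). Control sites were thus not confined to weak or narrow TRb PTU peaks. The highest-scored one, picked out after its value was seen, was the lone peak chr17:28897683-28898463 (781 bp, score 439.74) with 1 GFP PTU peak of 51 bp inside it. Of the 100 highest-scored peaks of the list, 2 were at control sites, against 0.160% of all TRb PTU peaks.

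The 2 GFP PTU clusters differed in how TRb PTU covered them. At chr14:18758368-18762336 the 3 GFP PTU peaks filled 97.0% of 3969 bp, and all 3 met TRb PTU peaks of 603 and 3512 bp (scores 46.85 and 35.11). At chr2:22443280-22445682 there were 8 GFP PTU peaks in 2403 bp. Here TRb PTU had only 2 peaks, of 368 and 524 bp with scores of 7.69 and 12.90, and 5 of the 8 were met. The other 3 were among the 13 GFP PTU peaks with no TRb PTU overlap, whose distance to the nearest TRb PTU peak ran from 6 to 222892 bp with a median of 4795 bp. The highest-scored of the 13 were the peaks at chr2:22443741-22443795 (score 22.31) and chr2:22444360-22444416 (19.18) in this cluster. Next came chr10:95540283-95540336 (13.90), chr13:44964954-44965025 (12.14) and chr16:29579377-29579463 (10.73), each of them alone. The first 3 of these 5 had a TRb T3 peak, and 5 of the 13 did in all.

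A second library with the same receptor, from livers given T3, showed which of these sites were called again. Of the 51297 TRb PTU peaks, 27649 were also met by a TRb T3 peak, 53.9% (interval 53.5 to 54.3%). The share was larger in each wider class, from 39.9% under 200 bp (interval 39.2 to 40.5%) through 59.0, 69.4 and 76.8% to 86.1% at 600 bp or more (interval 84.1 to 87.9%). Wide peaks are larger targets, and the part this has in the difference was not tested. With at least 50% of the TRb PTU peak required, the widest class fell to 51.5% while peaks under 200 bp stayed at 39.5%. TRb T3 peaks had a median width of 193 bp and an upper quartile of 259 bp. Most of them could not alone cover 50% of a peak of 600 bp or more, so the rule itself lowers that class. With midpoints within 200 bp the widest class had 72.5% and peaks under 200 bp had 39.6%. All of the 100 highest-scored TRb PTU peaks were overlapped.

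Within score classes the width made less difference. In the lowest of the 5 score classes (2 to 9.40), 26.7% of peaks under 200 bp (interval 25.7 to 27.7%) and 25.2% of those of 400 to under 600 bp (interval 18.0 to 33.5%) were overlapped by TRb T3. In the highest class the shares were 82.7% under 200 bp (interval 78.6 to 86.3%, 394 peaks) and 95.8% at 600 bp or more (interval 94.2 to 97.0%, 856 peaks). That class runs from 51.42 to 615.60. Peaks under 200 bp reached only 131.66 and those of 600 bp or more 478.46, so these shares were not compared at equal score. The shares differed less by cluster size than by width, with 49.6% of lone peaks (interval 48.6 to 50.5%) and 56.6% of peaks in clusters of 10 or more (interval 55.5 to 57.7%) overlapped. In the lowest score class these were 24.7 and 25.9%, with overlapping intervals, and in the highest 87.7% (interval 86.0 to 89.3%) and 90.2% (interval 88.9 to 91.4%). Of the peaks at GFP PTU sites 53.7% were overlapped (interval 42.3 to 64.8%), against 53.9% of the others, a difference smaller than the counting error. Among the 5 fullest clusters, TRb T3 peaks overlapped 33 of 39 peaks on chromosome 14 (84.6%), 23 of 40 in the first cluster on chromosome 10 (57.5%) and 20 of 36 on chromosome 8 (55.6%). They overlapped 21 of 43 on chromosome 19 (48.8%) and 14 of 39 in the second cluster on chromosome 10 (35.9%). By chromosome the share ran from 50.2% on chromosome 11 (interval 48.7 to 51.8%) to 57.0% on chromosome 6 (interval 55.2 to 58.7%). The 2 ChIP samples are separate libraries, but the control used for calling either list is not stated and the depth of neither is known. The shares depend on how many peaks were called in TRb T3.

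**Figure D5:**
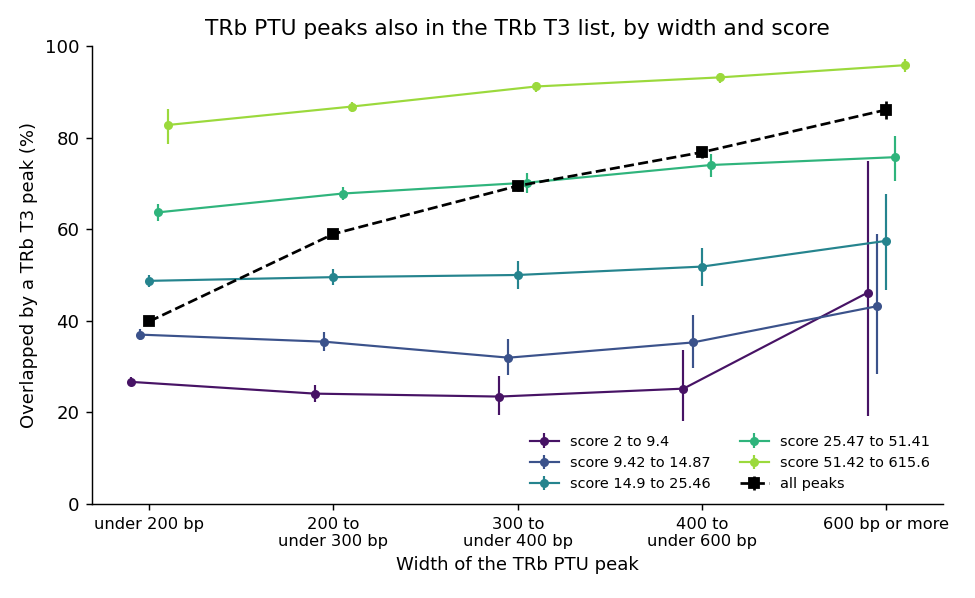
Share of TRb PTU peaks overlapped by a TRb T3 peak (%, vertical axis) by width class, for all 51297 peaks (black dashed line) and within 5 score classes (coloured lines), with exact 95% binomial intervals as bars. The line for all peaks climbs from 39.9 to 86.1%, while the lines within score classes are flatter. They are ordered by score except at 600 bp or more, where the lowest class had only 13 peaks (46.2%, interval 19.2 to 74.9%) and lay above the next.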

How the data were processed

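Peak lists of 3 ChIP samples were analysed, of which TRb PTU and GFP PTU form the comparison; 3 input samples in the labels were not analysed here. Samples were grouped by title. The deposited files give chromosome, start, end, name and a score, the value of the authors' peak caller for each peak; its statistic, the control library, settings and filters were not stated in the labels or files. The submitters' processing notes name Bowtie, SAMtools, MACS2 and mm9. Peaks are listed for each sample separately.

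From these lists widths, distances, clusters (single linkage at 12.5 kb), densities, windows of 1 Mb and overlaps of at least 1 bp were computed. Alternatives were other linkage distances, merging, a score filter, stricter overlaps, all sequences and removal of GFP sites. The code was tested on simulated data. The members, classes and alternatives were chosen with earlier results of these data known. Peaks named are the widest, the highest-scored per width class and among those with no other within 100 kb, the fullest and longest-covered clusters, the longest stretches without peaks, and GFP clusters and GFP peaks without overlap. The planned comparison with gene positions and receptor motifs needs an mm9 genome and was not run. Python 3.11.15, numpy 2.4.6, pandas 2.3.3, scipy 1.17.1 and matplotlib 3.10.9 were used.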

Additional observations from a re-analysis of the deposited data

Results flagged for a closer look

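Peaks outside chromosomes 1 to 19 entered none of the comparisons above, and TRb PTU exceeded the control there. On chromosome X, TRb PTU had 607 peaks and GFP PTU had 3. The 607 had a median width of 189 bp and a median score of 15.7, below the 210 bp and 19.4 of chromosomes 1 to 19. The mitochondrial sequence had 13 TRb PTU peaks and 0 GFP PTU peaks, with a median width of 367 bp and no score above 4.82. On chromosome Y and unplaced sequence, TRb PTU had 75 peaks against 1, with a median width of 206 bp. The depth behind these numbers is unknown, and no cause was tested.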

How the results depend on the processing

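No paired analysis was possible because there was only 1 library a side. Of 64 alternative values, 28 stayed within the counting interval or, for totals, within 1.5 times. Without peaks at GFP sites every value tried did, but this removed only 0.160% of the peaks and could hardly have moved any value. With scores at or above the median, 25721 peaks covered 7.91 Mb, 39.0% were 300 bp or wider (23.8% before), the median width was 265 bp, the median distance 16.1 kb, the share of distances under 1 kb 11.2% and the share in clusters of 3 or more 44.2%. With distances up to 500 bp merged, these shares and medians were 32.3%, 225 bp, 10.4 kb, 7.93% and 56.1%. Distances between midpoints gave 7.67 kb and 16.7%. The clustered share was 63.0% with all sequences, 40.8% at a linkage of 5 kb and 78.9% at 25 kb. The median score was 17.9 for lone peaks at 5 kb, and 16.4 for lone peaks and 21.0 in clusters of 10 or more at 25 kb. In windows of 500 kb, 14.0% held 50% of peaks. GFP PTU peaks met by TRb PTU were 11.7% with 50% of the TRb PTU peak required and 77.7% with midpoints within 200 bp; TRb PTU peaks at GFP sites were 0.0195% with the former and 0.0819% with the higher-scored GFP PTU peaks. Overlap with TRb T3 was 49.2% (50% required), 53.2% (midpoints) and 33.7% (TRb T3 scores at or above the median). By class and with the same settings, it was 20.9% under 200 bp with the score filter, 51.5, 72.5 and 63.8% at 600 bp or more, 45.9 and 30.5% in lone peaks with 50% required and with the filter, and 50.2 and 35.4% in clusters of 10 or more. The filters remove peaks, so distances lengthen and overlaps drop by construction. Unknown depth limits every count of peaks.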

Other observations

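Neighbouring TRb PTU peaks hardly resembled each other in strength. For consecutive peaks under 1 kb apart, the Spearman coefficient of their scores was 0.057 over 10214 pairs, and that of their widths was 0.023. For peaks 1 to 5 kb apart the coefficients were 0.052 and 0.0051 over 11839 pairs. For peaks 50 to 100 kb apart they were 0.029 and 0.017 over 3703 pairs. The pairs come from 1 library, share peaks with the next pair and are given as a description.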
